A study of Mus musculus with 9 samples.

Results

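Mitochondrial mRNAs for subunits of cytochrome c oxidase (COX1, COX2 and COX3), for cytochrome b (CYTB) and for ATP synthase (ATP6 and ATP8) were examined in extracellular vesicles (EVs), small vesicles shed by cells that carry RNA and protein. The members were all noncontrol probes of the array whose listed gene name was one of these 6 names or its mt- form. Of the 6 names, 5 were found, each with 1 probe of 60 bases printed as 1 spot, so that the members were 5 of 36492 names and 5 of 55681 noncontrol probes. No probe was listed as ATP6. A probe that the array annotation describes as mitochondrially encoded ATP synthase 6 is listed under its transcript identifier alone, and its values are given beside the members without being counted among them. COX1 and COX2 here are the oxidase subunits, not the prostaglandin synthases that share these abbreviations.

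The vesicles were released by cultured mouse embryonic fibroblasts, or MEFs, connective tissue cells taken from embryos. Total RNA was hybridised to 1-colour arrays. There were 5 arrays of EVs from MEFs treated with PBS, a phosphate-buffered saline, and 4 arrays of EVs from control MEFs. Age, strain and the length of the treatment were not given in the labels, and neither was whether the PBS-treated cells had received the electric pulses that the study used for transfection. Nothing in the labels says that replicates were separate cultures, so the spread behind each p-value may be technical. Both groups are EV RNA, so a lower signal of a transcript in the source cells and a smaller share of it reaching the vesicles cannot be told apart.

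The mitochondrial chromosome encodes a few hydrophobic subunits of the complexes that carry out oxidative phosphorylation, while the nucleus encodes the rest, and the complexes are built from both. Cytochrome b is the mitochondrial subunit of complex III, COX1, COX2 and COX3 form the catalytic core of complex IV, and ATP6 and ATP8 belong to the membrane part of complex V, the ATP synthase. The genes on one strand are transcribed as a long precursor that is cut at tRNAs into mRNAs, and ATP8 and ATP6 overlap and share 1 mRNA. The mitochondrial genetic code reads TGA as tryptophan, whereas the nuclear code reads it as a stop.

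The probe sequences are shown because they show which transcript each signal reads and where that reading is ambiguous. They are given 5′ to 3′ in the sense of the transcript, with capitals marking TGA codons that lie in the reading frame of the annotated transcript. Frame and positions were taken from the array annotation, which uses mm9.
COX1, chrM:6650-6709, plus strand: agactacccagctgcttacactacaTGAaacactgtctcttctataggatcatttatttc
COX2, chr1:24621739-24621798, minus strand: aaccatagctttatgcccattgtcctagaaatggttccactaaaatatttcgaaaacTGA
COX3, chr1:24620286-24620345, minus strand: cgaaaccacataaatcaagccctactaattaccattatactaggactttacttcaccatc
CYTB, chrM:15099-15158, plus strand: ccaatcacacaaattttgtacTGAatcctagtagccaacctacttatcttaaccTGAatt
ATP8, chr1:24621488-24621547, minus strand: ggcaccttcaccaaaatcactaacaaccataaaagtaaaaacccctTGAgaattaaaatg
ATP6 (probe listed by identifier), chr1:24621393-24621452, minus strand: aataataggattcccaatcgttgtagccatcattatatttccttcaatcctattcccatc

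CYTB held 2 such codons, COX1, COX2 and ATP8 held 1 each, and COX3 and the ATP6 probe held 0. None of the member probes held an in-frame TAA or TAG. COX1 and CYTB were placed on the mitochondrial chromosome. The array annotation placed the other 3 members and the ATP6 probe on chromosome 1, although it describes their transcripts as mitochondrially encoded. These 4 probes were spaced on chromosome 1 as they are along the mitochondrial genes, with 1 constant offset, so that the stretch there follows the mitochondrial gene order. Copies of mitochondrial DNA are known in nuclear chromosomes, and RNA of the mitochondrial gene and RNA of such a copy cannot be told apart with these 4 probes. The probes were not realigned, so whether those of COX1 and CYTB also match such a copy was not checked. The ATP8 and ATP6 probes lie 35 bases apart. GC content was 35% to 38.3% in the member probes, against a median of 43.3% over the probes of all genes tested, of which 31.7% were at or below 38.3%.

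All 5 members had lower signals in EVs from PBS-treated MEFs than in EVs from control MEFs, by 1.96 to 3.80 on the log2 scale (3.88-fold to 13.9-fold). COX1 differed by the widest margin and COX2 by the narrowest. Signals are log2 of the background-corrected brightness, from which each array's own 75th percentile of the probes detected on all 9 arrays was subtracted. All members passed the threshold (limma, Benjamini-Hochberg adjusted p under 0.05 over 14319 genes), and no PBS-treated array overlapped a control array. Of all genes tested, 20.7% were lower by the same test, 17.6% were lower without overlap, and 52.2% changed in either direction. The number lower, 2964, depended on the processing and was 719 with spike-in scaling, 1354 with the percentile over all noncontrol probes and 4908 with slide as a block, and all 5 members were lower in each. The median difference was -2.43 over the members and -0.02 over all genes.

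**Figure D1:**
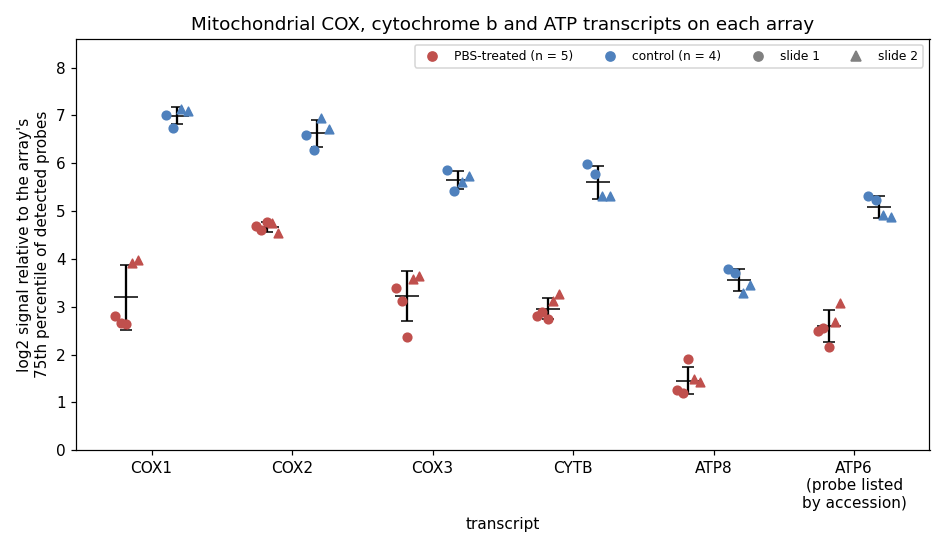
The vertical axis is the percentile-scaled log2 signal and the horizontal axis the transcript. Each point is an array (circle, slide 1, or triangle, slide 2), and bars are the mean ± SD of each group. The 5 PBS-treated arrays lie below the 4 control arrays for each of the 5 members and for the ATP6 probe, and COX1 is higher on slide 2 than on slide 1 among the PBS-treated arrays.

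COX1, the subunit that holds the site where oxygen is reduced, read 2.80, 2.67, 2.63, 3.91 and 3.97 in PBS-treated replicates 1 to 5, against 7.02, 6.74, 7.13 and 7.09 in control replicates 1 to 4 (log2 signal). The PBS-treated arrays fell into a lower trio and a higher pair, which are the arrays of slide 1 and of slide 2. The fitted difference was -3.80 ± 0.33 (SE, limma adjusted p = 3.61e-05), and 1.35% of all genes tested had a lower difference. On the linear scale, without scaling between arrays, the processed signals ran from 8855 to 18100 in PBS-treated and from 59029 to 109930 in control EVs.

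COX2, which takes electrons from cytochrome c, read 4.69, 4.60, 4.77, 4.75 and 4.54 in PBS-treated replicates 1 to 5, against 6.58, 6.27, 6.94 and 6.71 in control replicates 1 to 4. On this scale it had the smallest spread of the members among PBS-treated arrays, with an SD of 0.099 (n = 5), against 0.28 (n = 4) in control arrays. That order depended on the processing. In the deposited value table COX2 ran from 14.23 to 15.22 among PBS-treated arrays, and CYTB from 12.30 to 12.82. The difference was -1.96 ± 0.15 (SE, limma adjusted p = 1.92e-05). Over both slides together the unscaled processed signals did overlap, at 26829 to 52994 in PBS-treated and 45464 to 79281 in control EVs. Within each slide they did not overlap. The highest PBS-treated and lowest control signals were 52994 and 75640 on slide 1, and 29483 and 45464 on slide 2. The ATP8 and ATP6 probes likewise overlapped only over both slides together. On a scale set by spike-in RNAs the groups were apart as well, with a highest PBS-treated value of 0.99 and a lowest control value of 1.18.

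COX3, a structural subunit of the same core, read 3.39, 3.13, 2.37, 3.58 and 3.65 in PBS-treated replicates 1 to 5, against 5.86, 5.41, 5.60 and 5.73 in control replicates 1 to 4. Replicate 3 was the lowest of the PBS-treated arrays. The difference was -2.43 ± 0.27 (SE, limma adjusted p = 0.000112), and without PBS-treated replicate 3 it was -2.22 (adjusted p = 5.96e-05).

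CYTB, which carries the b-type hemes of complex III, read 2.80, 2.90, 2.74, 3.11 and 3.26 in PBS-treated replicates 1 to 5, against 5.99, 5.78, 5.32 and 5.31 in control replicates 1 to 4. On slide 2 the PBS-treated arrays were higher and the control arrays lower than on slide 1. The difference was -2.64 ± 0.19 (SE, limma adjusted p = 1.45e-05), or 6.22-fold lower.

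ATP8, a short membrane subunit of the ATP synthase, read 1.26, 1.19, 1.91, 1.50 and 1.42 in PBS-treated replicates 1 to 5, against 3.80, 3.71, 3.28 and 3.45 in control replicates 1 to 4. Replicate 3 was the highest PBS-treated array for this probe. The difference was -2.10 ± 0.18 (SE, limma adjusted p = 3.48e-05). Its unscaled signals overlapped over both slides together, at 3078 to 5361 in PBS-treated and 4403 to 13397 in control EVs, but not within either slide. The probe for ATP6, the subunit that forms the proton path beside the rotating ring, read 2.49, 2.56, 2.15, 2.68 and 3.08 in PBS-treated replicates 1 to 5, against 5.32, 5.23, 4.92 and 4.87 in control replicates 1 to 4. It was 5.62-fold lower, with a difference of -2.49 ± 0.20 (SE, limma adjusted p = 2.32e-05), or -1.21 on the spike-in scale. Its unscaled signals overlapped in the same way, with a highest PBS-treated value of 12894 and a lowest control value of 12709, but not within either slide.

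The log2 ratio of ATP8 to the ATP6 probe averaged -1.14 ± 0.53 in PBS-treated and -1.53 ± 0.09 in control EVs (SD, n = 5 and 4). PBS-treated replicate 3 stood at -0.25, while the other PBS-treated arrays were between -1.66 and -1.18. That array also differed from the rest in the scanner software's spatial correction, a factor that depends on a spot's place and by which its signal is divided. For COX1 the factor was 1.36 on PBS-treated replicate 3 and 0.719 to 0.824 on the other 8 arrays, and for CYTB it was 1.27 and 0.846 to 0.981. For COX3 it was 0.595 on that array and 1.19 to 1.26 on the others, for ATP8 0.528 and 1.07 to 1.23, for COX2 0.791 and 1.12 to 1.23, and for the ATP6 probe 0.518 and 1.20 to 1.28. The correction thus ran the other way on this array at all 6 spots, and its part in the values was not tested. Without this array the differences were -3.66 for COX1, -1.98 for COX2, -2.58 for CYTB, -2.22 for ATP8 and -2.38 for the ATP6 probe, and all passed.

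The members' share of the brightness summed over all noncontrol probes was 0.301%, 0.298%, 0.287%, 0.365% and 0.283% on PBS-treated replicates 1 to 5, against 1.73%, 1.46%, 1.61% and 1.57% on control replicates 1 to 4. The highest PBS-treated array was thus below the lowest control array, as for the single members. Other properties of the arrays moved with the groups. PBS-treated arrays had 17969 ± 1199 probes well above background and control arrays 14016 ± 1607 (SD, n = 5 and 4, exact permutation test, two-sided, p = 0.00794, the smallest it can give). The difference was 2447 probes on slide 1 (exact p = 0.2) and 5519 on slide 2 (exact p = 0.333), where the smallest possible p was 0.1 and 0.167.

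The 75th percentile itself, set against 7 spike-in probes for RNAs added before labelling, was -3.83 ± 0.08 in PBS-treated and -5.11 ± 0.06 in control arrays (log2, SD, n = 5 and 4, exact permutation p = 0.00794), a difference of 1.27 on slide 1 and 1.30 on slide 2. Scaling to the spike-in probes in place of the percentile therefore moved the median of all genes to 1.26. The members were lower on that scale too, with differences of -2.52 for COX1 (limma adjusted p = 0.000198), -0.68 for COX2 (0.00486), -0.82 for ATP8 (0.0041), -1.15 for COX3 (0.00381) and -1.36 for CYTB (0.000195). The part of the number of detected probes in these differences was not tested.

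The arrays lay on 2 slides that each held both groups. PBS-treated replicates 1 to 3 shared slide 1 with control replicates 1 and 2, and the other arrays were on slide 2. On slide 1 the members differed by -4.18 (COX1), -1.74 (COX2), -2.68 (COX3), -3.07 (CYTB) and -2.30 (ATP8). On slide 2 they differed by -3.17, -2.18, -2.05, -2.13 and -1.91 in the same order. The direction was the same on both slides for every member. The size of the difference was smaller on slide 2 than on slide 1 for COX1 by 1.01 ± 0.18 (SE, limma interaction, adjusted p = 0.0215) and for CYTB by 0.94 ± 0.17 (adjusted p = 0.023), a test that 9.39% of all genes passed. The interaction did not pass for COX2 (-0.44 ± 0.22), ATP8 (0.39 ± 0.33), COX3 (0.62 ± 0.44) or the ATP6 probe (0.86 ± 0.26), which does not show that the slides were alike for these transcripts.

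Ratios of a pair of members on the same array do not depend on a scaling by 1 factor per array. COX1 was lower relative to each of the other 4 members in PBS-treated EVs. The log2 ratio of COX1 to COX2 was -1.89, -1.93, -2.14, -0.84 and -0.57 in PBS-treated replicates 1 to 5, against 0.43, 0.47, 0.19 and 0.38 in control replicates 1 to 4. All 5 PBS-treated arrays were below the 4 control arrays, while the level of the ratio itself also depends on how well each probe hybridises. The difference was -1.84 (exact permutation test, two-sided, p = 0.0159, 0.0317 adjusted over the 10 pairs compared), with -2.44 on slide 1 and -0.99 on slide 2.

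The ratio of COX1 to COX3 averaged -0.03 ± 0.45 in PBS-treated and 1.34 ± 0.15 in control EVs (SD, n = 5 and 4), and thus differed by -1.37 (exact permutation p = 0.00794, adjusted 0.0317). COX1 to ATP8 averaged 1.74 ± 0.75 and 3.44 ± 0.37 in the same order of groups, a difference of -1.70 (exact permutation p = 0.0159, adjusted 0.0317). COX1 to CYTB averaged 0.23 ± 0.48 in PBS-treated and 1.40 ± 0.46 in control EVs, and thus differed by -1.16 (exact permutation p = 0.0159, adjusted 0.0317). Within each slide these 3 differences kept their sign, at -1.50 and -1.12 for COX3, -1.88 and -1.26 for ATP8, and -1.11 and -1.04 for CYTB, where the smallest p a slide can give is 0.1 and 0.167. The call for COX1 against COX3 did not hold without the software's background correction (exact permutation p = 0.111), a setting that also leaves out the spatial factor.

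Among the other 4 members, 1 of 6 pairs passed. ATP8 to CYTB was -1.51 ± 0.39 in PBS-treated and -2.04 ± 0.13 in control EVs (SD, n = 5 and 4), 0.53 higher (exact permutation p = 0.0159, adjusted 0.0317), and this call was lost on the uncorrected signals (0.25, exact permutation p = 0.238). The remaining 5 pairs differed by 0.15 (COX2 to ATP8), 0.47 (COX2 to COX3), 0.68 (COX2 to CYTB), 0.33 (ATP8 to COX3) and 0.21 (COX3 to CYTB), with exact permutation p between 0.0635 and 0.587. On slide 1 they differed by 0.56, 0.94, 1.33, 0.38 and 0.39 in the same order, and on slide 2 by -0.28, -0.13, -0.05, 0.15 and 0.08. The slide 1 value for COX2 to CYTB was thus larger in size than that for COX1 to CYTB. In the deposited value table COX2 to ATP8 (0.54) and COX2 to COX3 (0.92) had an exact permutation p of 0.0159 each, and after quantile normalization COX2 to CYTB (0.65) had 0.0476, none of them adjusted over pairs. The misses on the processed signals do not show that the 4 transcripts moved alike, since the ratios had SDs of 0.23 to 0.74 among the PBS-treated arrays.

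**Figure D2:**
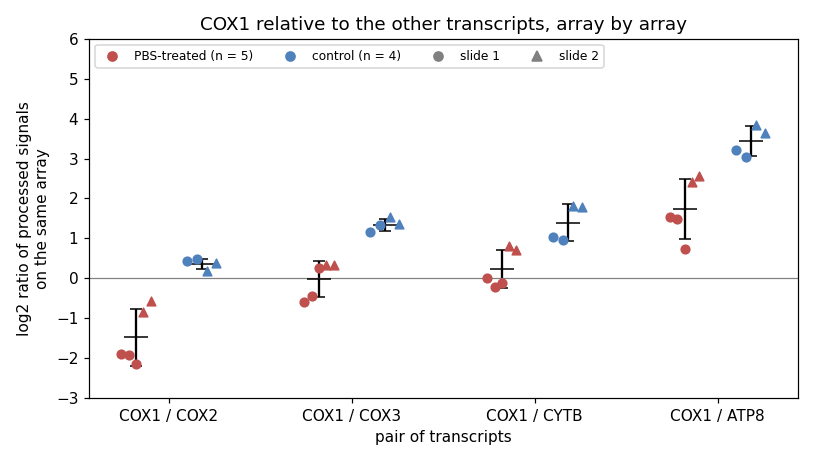
Log2 ratio of the processed signals of COX1 and another member on the same array (vertical axis) for 4 pairs (horizontal axis). Each point is an array (circle, slide 1, or triangle, slide 2), with bars for the mean ± SD. The PBS-treated arrays lie below the control arrays in all 4 pairs, with differences of -1.84, -1.37, -1.16 and -1.70 from left to right.

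The other 7 mitochondrially encoded mRNAs, ND1 to ND6 and ND4L, encode subunits of complex I, and all 7 were lower in PBS-treated EVs, with a median difference of -2.21. ND3 had a difference of -3.17 ± 0.21, ND4 -2.59 ± 0.13, ND5 -2.25 ± 0.16 and ND2 -2.21 ± 0.16 (log2, SE). ND1 had -1.93 ± 0.29, ND6 -1.76 ± 0.30 and ND4L -1.74 ± 0.15. The ND3 and ND4L probes are placed on chromosome 1 like those of COX2, COX3 and ATP8, with the same ambiguity. ND6 is the one mRNA encoded on the opposite strand to the other 12, and it was lower too. On the spike-in scale all 7 were still below 0, at -1.89 to -0.46, but ND1 and ND6 did not pass there (limma adjusted p = 0.0827 and 0.214). The members' median difference was -2.68 on slide 1 and -2.13 on slide 2, against -2.54 and -1.95 for the complex I transcripts on the same slides.

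**Figure D3:**
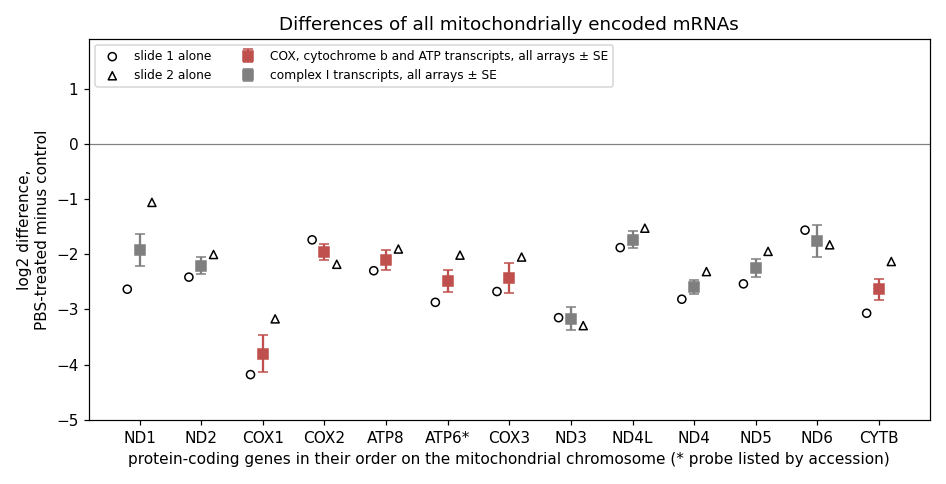
Log2 difference, PBS-treated minus control (vertical axis), for the 13 protein-coding transcripts in the order of their genes on the mitochondrial chromosome (horizontal axis), with squares for all arrays ± SE and open symbols for each slide alone. All 13 squares lie below 0, and COX1 at -3.80 lies lower than its neighbours ND2 at -2.21 and COX2 at -1.96. ND3 stands at -3.17.

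Along the chromosome, COX1 stood between ND2 (-2.21) and COX2 (-1.96), and the ATP8, ATP6 and COX3 probes that follow were at -2.10, -2.49 and -2.43. COX1 thus differed from both neighbours on the map by more than the standard error of either. ND3, the next gene after COX3, was at -3.17, and on slide 2 alone it was lower (-3.29) than COX1 (-3.17). The difference between COX1 and ND2 was not tested.

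The nuclear-encoded subunits of the same complexes moved in both directions, and 7 of the 39 tested were lower. Differences ran from -0.52 (Uqcrfs1) to 1.02 (Uqcrb) over 9 subunits of complex III, from -1.80 (Cox6b2, which did not pass, adjusted p = 0.114) to 0.99 (Cox7b) over 15 of complex IV, and from -1.63 (Atp5a1) to 0.94 (Atp5b) over 15 of complex V. Among the lower ones were also Cox4i2 (-1.47 ± 0.32, SE, limma adjusted p = 0.00477) of complex IV and Atp5g2 (-1.52 ± 0.32, adjusted p = 0.00366) of complex V. Cox4i2 was dim, above background on 3 PBS-treated and 2 control arrays. Its difference was near the median of -1.34 for probes above background on no array, so it does not show a lower transcript. On these values each mitochondrially encoded subunit, at -3.80 to -1.96, lay below every nuclear-encoded subunit tested of its own complex. This order was not tested, and the gap between COX2 (-1.96 ± 0.15) and Cox6b2 (-1.80 ± 0.87) was smaller than the standard error of Cox6b2.

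**Figure D4:**
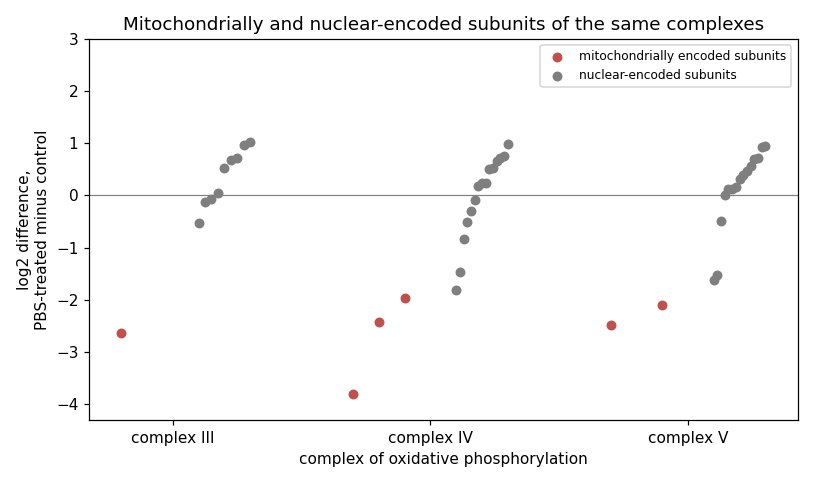
Log2 difference, PBS-treated minus control (vertical axis), of each subunit tested, by complex (horizontal axis), with mitochondrially encoded subunits left of nuclear-encoded subunits. In each complex the mitochondrially encoded points, -3.80 to -1.96, lie below the nuclear-encoded points, -1.80 to 1.02.

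In complex III, 5 of the 9 subunits tested were higher, 1 was lower and 3 did not pass, with a median of 0.53. Uqcrb rose by 1.02 ± 0.11 and the core proteins Uqcrc2 and Uqcrc1 by 0.98 ± 0.13 and 0.72 ± 0.15 (log2, SE, limma adjusted p = 9.06e-05, 0.000269 and 0.00377). In complex IV, 5 of the 15 tested were higher, 3 lower and 7 did not pass, with a median of 0.23. Cox7b rose by 0.99 ± 0.15 and Cox5a by 0.66 ± 0.10, while Cox7a2l fell by 0.83 ± 0.13 (limma adjusted p = 0.000658, 0.00069 and 0.000957), a fall that turned to 0.45 on the spike-in scale. Cox7a2l was counted among the 15 although it is an assembly factor of supercomplexes.

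In complex V, 7 of the 15 subunits tested were higher, 3 lower and 5 did not pass, with a median of 0.31. Atp5pb of the peripheral stalk rose by 0.92 ± 0.10 and the catalytic beta subunit Atp5b by 0.94 ± 0.13, and the alpha subunit Atp5a1 fell by 1.63 ± 0.23 (log2, SE, limma adjusted p = 0.000113, 0.000334 and 0.000489). Atp5a1 did not pass on the spike-in scale (-0.35, adjusted p = 0.201). Over all genes tested, 31.5% were higher and 20.7% lower. On the spike-in scale 9, 12 and 13 subunits of complexes III, IV and V were higher and 0 lower in each, so the counts depend on the scale. There 62.4% of all genes tested were higher and 5.02% lower.

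Of 23 assembly factors of complexes III, IV and V that were tested, 11 were higher, 1 was lower and 11 did not pass, with a median of 0.37. Over all genes tested the shares were 31.5% higher and 20.7% lower, and 62.4% and 5.02% on the spike-in scale. Tmem70, which acts in the making of ATP synthase, rose by 1.55 ± 0.23 and Cox11, which delivers copper to cytochrome c oxidase, by 1.86 ± 0.30, both with probes that cleared background on 2 of 4 control arrays. Uqcc3, a complex III assembly factor, fell by 0.73 ± 0.12 (limma adjusted p = 0.000579, 0.000979 and 0.000884 for the 3 genes), with 0.55 on the spike-in scale. Tmem70 and Cox11 did not pass with normexp, another background correction (0.41 and 0.29).

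Of 28 genes tested for mitochondrial transcription and RNA processing, 16 were higher, 2 were lower and 10 did not pass, with a median of 0.77. The shares over all genes tested were 31.5% higher and 20.7% lower. Mterf1a, Mterf2, Supv3l1 and Trmt10c, counted as higher, cleared background on 0 control arrays. They passed the filter through the PBS-treated arrays alone, so their being higher is not independent of that filter. Rexo2, a ribonuclease of short RNAs, rose by 1.65 ± 0.14, Ptcd3, a protein of the mitochondrial ribosome, by 1.91 ± 0.19, and Pnpt1, an exoribonuclease of mitochondrial RNA, by 2.27 ± 0.33 (log2, SE, limma adjusted p = 3.34e-05, 6.5e-05 and 0.000507). Pnpt1 cleared background on 2 of 4 control arrays and did not pass with normexp (0.36). With normexp the list's median turned to -0.30 and its counts to 4 higher and 6 lower, while the median of all genes was -0.51 on that scale. Probes that were well above background on no array differed by a median of -1.34 on the scale used here. The 75th percentile that sets this scale was itself 1.28 higher in PBS-treated arrays when set against the spike-in probes. Values of dim genes thus depend on the scaling as well as on the background correction, and the part of each was not tested.

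The 5 genes outside the mitochondrial chromosome whose profile over the 9 arrays was most like the members' mean profile were Snx21, Scrib, Nek9, Pkp4 and Kctd10, out of 9855 named genes. Likeness was measured as the root mean square difference between gene-centred log2 values, which was 0.101 for Snx21, a sorting nexin, 0.12 for Scrib, a cell polarity scaffold, and 0.132 for Nek9, a mitotic kinase. It was 0.142 for both Pkp4, a protein of cell junctions, and Kctd10, a BTB domain protein. Their differences ran from -2.67 (Nek9) to -2.36 (Kctd10). The members' own distances to their mean profile were 0.18 for CYTB, 0.26 for COX3, 0.37 for ATP8, 0.40 for COX2 and 0.68 for COX1, and ND4 of complex I stood at 0.12. The 5 nuclear transcripts were picked for the smallest distances out of 9855, while the members were set by name. Their distances therefore cannot be weighed against the members' own.

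Markers of fibroblasts were present in the EV RNA. Of 13 such genes, 10 cleared background on all 9 arrays, Col1a1, Col1a2 and Vim among them, while Thy1 was on none. Of the 12 tested, 3 were higher in PBS-treated EVs, 4 were lower and 5 did not pass, with a median of -0.38. Over all genes tested, 31.5% were higher and 20.7% lower. Lum, counted as higher, cleared background on 4 PBS-treated and 0 control arrays, and so passed the filter through the PBS-treated arrays alone. The genes differed in direction, as with Dcn (2.03 ± 0.29) and Col1a1 (-1.35 ± 0.18, log2, SE). The list's share of summed brightness was 0.195% to 0.265% in PBS-treated and 0.113% to 0.173% in control EVs, a sum in which the brightest genes weigh most. Of 8 leukocyte markers, Cd3e and Itgam were detected on all arrays, and Adgre1, Cd68 and Lyz2 on none, with a share of 0.00447% to 0.0104% in PBS-treated and 0.0108% to 0.0149% in control EVs. The endothelial genes Cdh5, Emcn and Tek and the epithelial genes Cdh1, Epcam and Krt18 were on no array above background. The endothelial gene Kdr was detected on all 9 arrays, and Pecam1 on 1 PBS-treated and 4 control arrays. The epithelial gene Krt19 cleared background on 3 PBS-treated and 2 control arrays. Endothelial markers held 0.000573% to 0.000829% of the brightness in PBS-treated and 0.00123% to 0.00199% in control EVs, and epithelial markers 0.000148% to 0.000235% and 0.000282% to 0.000519% in that order. Of 3 erythroid genes on the array, 0 were detected on all 9. The part of these markers in the result was not tested.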

How the data were processed

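The labels and the study's methods say that EV RNA was purified with a miRNeasy Serum/Plasma kit, reverse transcribed and labelled with cyanine 3. Per the file headers, the authors read Agilent 8x60K arrays with Agilent Feature Extraction, version 10.7.3.1. How their own later pipeline normalized the values is unstated in these sources. Deposited intensity values are background-corrected signals per spot, with the mean signal, the local background, and other marks for detection, saturation and non-uniform spots. The deposited scanner files also hold the ratio by which the software corrected each spot for its place. A deposited log2 value table of the same arrays (median 5.97 on each) ranked probes as the mean signal did (Spearman 1) and served as an alternative. Its centring is unknown.

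Non-uniform spots (3 to 29 per array) were left out, and no noncontrol spot was saturated. From log2 of the processed signal the array's 75th percentile over the 8422 probes detected on every array was subtracted. Probes above background on at least 4 arrays (17765) were kept, with the probe of highest mean for each of 14319 genes. Accessions of 26413 probes matched the RefSeq table, which renamed 3093, and 19903 probes have only an accession or interval as a name. The comparison of groups used lmFit and eBayes of limma 3.58.1 in R 4.3.3 (two-sided, Benjamini-Hochberg over all genes), after a check on simulated data. Ratios and array values were compared with exact permutation tests over samples. Figures were drawn with Python 3.11.15 and matplotlib 3.10.9. The number of arrays limits the precision.

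The members and gene lists were chosen with earlier results of these data known. Named genes were the members, all complex I transcripts, up to 3 passing genes of smallest p from each other list, the 5 nearest profiles, and Col1a1, Col1a2 and Vim. Other nuclear subunits and markers were named after their values were seen. Alternatives changed scaling, background correction (normexp, offset 50), filter, probe choice, slide, replicate block, variance model and arrays. Total-signal scaling and the member ratios were added after the data were seen.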

Additional observations from a re-analysis of the deposited data

Results flagged for a closer look

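The differences between PBS-treated and control EVs were not alike on the slides for 3 of the 13 mitochondrially encoded transcripts, by limma's interaction of group and slide, which 1345 of 14319 genes (9.39%) passed. For COX1 the difference on slide 2 minus that on slide 1 was 1.01 ± 0.18 (SE, adjusted p = 0.0215). For CYTB it was 0.94 ± 0.17 (adjusted p = 0.023). For ND1 it was 1.57 ± 0.19 (adjusted p = 0.00536), and there the spike-in scale gave 0.24 on slide 2 and -1.36 on slide 1. In all 3 the PBS-treated EVs were lower on both slides on the percentile scale. Over the 26 groups of arrays (13 transcripts, PBS-treated and control), 0 held an array set apart from its group by Dixon's test, which by chance would mark about 1 group in 20.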

How the results depend on the processing

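Each of the 5 members stayed lower and passed in all 30 alternatives run, with differences of -4.18 to -2.52 for COX1, -2.18 to -0.68 for COX2, -2.43 to -0.82 for ATP8, -2.68 to -1.15 for COX3 and -3.07 to -1.36 for CYTB, and a highest adjusted p of 0.0146. Leaving out 1 array at a time gave -3.99 to -3.66, -2.08 to -1.85, -2.22 to -2.02, -2.54 to -2.22 and -2.73 to -2.51 in the same order, with 6658 to 7370 genes changed and 2586 to 2921 lower, and 5 members lower each time. The number of genes changed over the whole array, 7477, became 4883 with the percentile over all noncontrol probes and 4507 with probes above background on all 9 arrays, where 7212 genes were tested. The number of genes lower, 2964, became 1354 with the percentile over all probes, 719 with spike-in scaling, 4674 with normexp and the percentile, 1900 with normexp and quantiles, 1887 with the value table, 5272 with no filter on dim probes (36492 genes tested), 4908 with slide as a block and 4488 on slide 1 alone. Apart from the larger and smaller numbers of genes tested, the cause was not tested. Several ratios turned sign that had not passed before. COX3 to CYTB went to -0.0125 with normexp, to -0.0119 on the mean signal and to -0.17 in the value table, and COX2 to ATP8 to -0.28 on slide 2 and to between -0.0227 and 0.34 when 1 array was left out, the lowest without control replicate 2. On slide 2 COX2 to COX3 was -0.13 and COX2 to CYTB -0.0501. COX1 to COX3 missed the threshold with normexp (-0.95, exact permutation p = 0.111) and in the value table (-1.01, exact permutation p = 0.103), and ATP8 to CYTB missed it in 9 of 15 alternatives. These include slide 1 alone and slide 2 alone, where the smallest possible p was 0.1 and 0.167, so no ratio could pass there. Without PBS-treated replicate 5, control replicate 3 or control replicate 4, COX2 to CYTB had an unadjusted exact permutation p of 0.0286, 0.0357 and 0.0357 (0.79, 0.88 and 0.80). Cox7a2l (0.45) and Uqcc3 (0.55) turned sign with spike-in scaling. Replicate numbers 1 to 4 occur in both groups. The deviations of same-numbered arrays correlated at 0.70, 0.73, -0.54 and 0.74, and number 3 lies on different slides, so the numbers were not taken to pair the samples. With the replicate block, 7443 genes changed and 3360 were lower, and the members differed by -3.99 (COX1), -1.92 (COX2), -2.09 (ATP8), -2.54 (COX3) and -2.71 (CYTB), all passing.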
